A study of Mus musculus with 20 samples.

Results

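Glutathione, antioxidant and drug-handling genes were examined as a set of 55 mouse genes in sorted prostate cancer cells from bone metastases. The members were chosen by their known roles and not by their measured values, though with earlier results of these data known. Of these 55 genes, 54 are listed in at least 1 of the deposited tables and 53 in all 3, where the tables together list 17104 genes. The members are 2 regulators of the antioxidant response, 3 of its much used targets, 4 genes of glutathione synthesis and recycling, 5 glutathione peroxidases, 11 cytosolic and 3 microsomal glutathione transferases, 7 thioredoxin and peroxiredoxin genes, 3 superoxide dismutase and catalase genes, 4 genes of the pentose phosphate pathway, 6 genes of phase I and carbonyl metabolism and 7 efflux pumps.

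The study asked how bone-metastatic prostate cancer becomes resistant to enzalutamide, an anti-androgen drug for prostate cancer, and whether macrophages take part. MycCaP-Bo cells, a bone-homing line selected in mice from the Myc-driven MycCaP line and marked with an infra-red fluorescent protein (iRFP), were injected into the heart of FVB/N mice aged 4 to 6 weeks, 7 days before treatment began. Tumor cells were sorted as CD45- iRFP+, the cells of 3 mice were pooled for each library, and RNA was sequenced in 20 libraries, 5 in each of 4 groups. Naive tumors received vehicle, and Resist tumors received enzalutamide at 30 mg/kg daily for 18 days. Resist-Mac tumors received the same enzalutamide with liposomal clodronate, which depletes macrophages, at 1 mg per mouse in the last 4 days. Naive-Mac tumors were treatment-naive and macrophage-depleted, and the days on which they received clodronate are not given in the sources used here. All 4 groups share the 1 cell line and its label, so the data describe this model and not prostate cancer at large.

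Cells neutralise peroxides with glutathione and thioredoxin, which are kept reduced by NADPH from, among others, the pentose phosphate pathway. Glutathione transferases attach glutathione to reactive compounds and drugs, and efflux pumps of the ABC family export drugs and glutathione conjugates. Many of these genes are targets of Nrf2, the transcription factor encoded by Nfe2l2, which Keap1 holds in check and which binds antioxidant response elements in their promoters and enhancers.

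The core of that element, TGACNNNGC, was searched on both strands in RefSeq promoter windows of the build GRCm38.p6, each from 250 bases before to 50 bases after a gene's start. It was found in 13 of the 48 members with a window (27.1%) and in 3781 of 27025 genes in all (14%). Members can have several windows, and by windows the counts were 14 of 60 (23.3%) and 4071 of 32851 (12.4%). The matches are shown with 10 bases on each side, the motif in capitals and read on the strand that carries it, for the members called in Resist vs. Naive that hold it (Abcc4, Gstm5), for the regulator Nfe2l2, and for Gclm and Prdx1, antioxidant genes that are much used as readouts of Nrf2. The coordinates are those of GRCm38.p6 only, since the submitters' processing notes name mm9 for the reads.
Abcc4, chr14:118676936-118676964, minus strand, at -19 from the start: aataatctcgTGACTCTGCcgtggtggat
Abcc4, chr14:118706226-118706254, plus strand, at -21 from another start: cggcccgcccTGACCCCGCctctcggggc
Gstm5, chr3:107895802-107895830, plus strand, at -38 from the start: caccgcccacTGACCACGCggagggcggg
Nfe2l2, chr2:75704885-75704913, minus strand, at -236 from the start: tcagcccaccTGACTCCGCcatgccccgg
Gclm, chr3:122245413-122245441, minus strand, at -130 from the start: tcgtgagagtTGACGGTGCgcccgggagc
Prdx1, chr4:116685456-116685484, minus strand, at -129 from the start: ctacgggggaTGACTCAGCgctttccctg
A match is a run of letters and not a measured binding site. Further matches lie in the windows of Srxn1, Txnrd1, Sod1, Mgst1, Gsta3, Pgd, G6pdx and Abcb1a. No match in a window says only that these letters are not in it, and Hmox1, Gclc, Gsr, Gsta4, Prdx6, Abcc1 and Abcc3 had no window in the RefSeq table.

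Expression was deposited as FPKM, a fragment count scaled to the length of the transcript and to the mapped fragments of the library. Levels below are means ± SD over n = 5 libraries in FPKM, which is a level per length. Changes are differences of log2(FPKM + 1) and were tested with limma across all genes that averaged 1 FPKM or more over the libraries compared. Because the log is taken after adding 1, a change understates the fold of a gene at a few FPKM. A member is said to have been called, and to have risen or fallen, at a Benjamini-Hochberg adjusted p under 0.05 over all genes tested together with a fold change over 1.5. The p-values measure the spread between pools of 3 mice. In bulk samples such as these, fewer cells of a type and less RNA per cell cannot be told apart.

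Naive and Resist libraries share batch 1 and 1 table, Resist-Mac libraries are batch 2 and Naive-Mac libraries are batch 3, each in a table of its own, per the labels. The FPKM of a library summed to between 481162 and 530961 in batch 1, between 617494 and 761510 in Resist-Mac and between 882276 and 1040436 in Naive-Mac libraries. Of the prostate epithelial markers Krt8 measured 216 to 408 FPKM in Naive and 101 to 272 in Resist libraries and was not called, Hoxb13 measured 1.99 to 3 and 6.07 to 7.27 and rose, and Krt18, Cdh1 and Tmprss2 did not pass 0.23 FPKM in any library that lists them. Epcam is listed only in the Naive-Mac table, at 0 to 0.05 FPKM. Markers of other cells also had reads. The 10 macrophage markers summed to 18.2 to 110.1 FPKM in Naive, 4.11 to 59.0 in Resist, 38.4 to 871 in Resist-Mac and 5.35 to 533 in Naive-Mac libraries, mostly Lyz2 and Cd14, with Adgre1 at 0.52 at most. The 8 neutrophil markers summed to 170.0 to 1226, 59.9 to 579.6, 391 to 8479 and 58.6 to 6027 FPKM, and the 9 erythroid markers to 54.1 to 108, 107 to 201, 131 to 311 and 214 to 954.

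Members spanned the whole range of expression. In every group 10 of them averaged over 100 FPKM, namely Gpx1, Gpx4, Gstp1, Mgst3, Txn1, Prdx1, Prdx2, Prdx5, Sod1 and Taldo1. At the other end, 8 averaged under 1 FPKM in every group that lists them, namely Nqo1, Gsta2, Gstm4, Gstt1, Cyp1b1, Cbr1, Cbr3 and Abcg2, the last an efflux pump that marks many stem-like cells. Nqo1, a quinone reductase and one of the most used reporters of Nrf2 activity, measured 0.06, 0, 0, 0 and 0 FPKM in the Naive, 0, 0.05, 0, 0 and 0 in the Resist, 0.06, 0.18, 0, 0 and 0.12 in the Resist-Mac and 0, 0, 0.13, 0.06 and 0 in the Naive-Mac libraries. It was at or near 0 in all 4 groups and entered no test. Gsta3 is listed in no table, and Gstt1 only in the tables of the macrophage-depleted tumors.

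Resist vs. Naive, the comparison for resistance, lies within 1 batch. The mu-class glutathione transferases Gstm1 and Gstm2, Mgst2, the epoxide hydrolase Ephx1 and the peroxidase Gpx8 were higher in Resist than in Naive tumors. So were the pumps Abcc3, Abcc4 and Abcc5, and the ratios of mean FPKM over all of these ran from 1.61 to 4.28. Hmox1, Cyp2s1 and Gstm5, also of the mu class, were lower. Of the 55 members, 44 were tested, 9 were under the filter (Nqo1, Gpx3, Gsta2, Gstm4, Mgst1, Cyp1b1, Cbr1, Cbr3 and Abcg2) and 2 were not listed. Of those tested, 8 rose (18.2%, where 5.25% of all genes tested rose) and 3 fell (6.82%, where 1.11% of all genes tested fell). The median log2 change over the members tested was 0.03, and that over all genes tested was 0.03 as well. For 13 of the 44 members, or 29.5%, every Resist library lay on the same side of all Naive libraries, against 12.8% of all genes tested. These 13 were the 11 called members together with Srxn1 and Taldo1, whose falls were smaller than 1.5-fold.

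**Figure D1:**
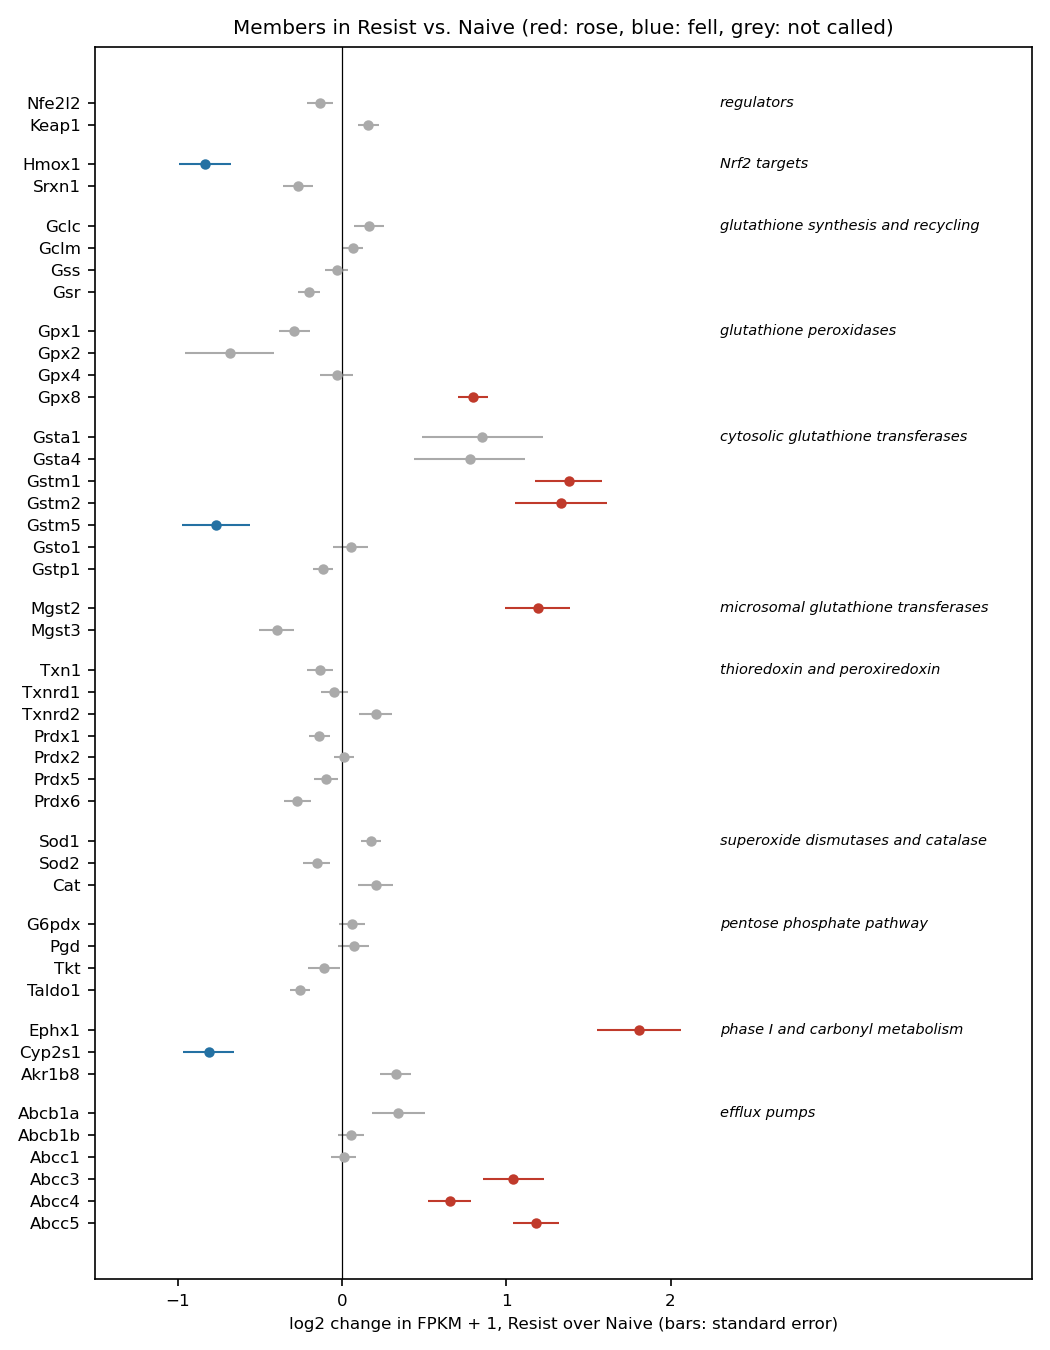
Log2 change of each member tested in Resist vs. Naive (x axis, log2(FPKM + 1) scale), with members listed by role class on the y axis. Each point is a member with its standard error as a bar, and colors mark members called higher, called lower and not called. In Resist vs. Naive the efflux pumps have 3 of 6 points called higher, and the thioredoxin and peroxiredoxin class has 0 of 7 called.

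Neither regulator was called. Nfe2l2, which encodes Nrf2, measured 22.1, 21.1, 25.9, 21.5 and 22.97 FPKM in the Naive libraries (22.7 ± 1.93) and 23.7, 21.6, 18.5, 19.97 and 19.4 in the Resist libraries (20.7 ± 2.06), a log2 change of -0.13 (SE 0.08, adjusted p = 0.264). Keap1, the adaptor that sends Nrf2 to degradation, measured 24.9, 23.8, 24.8, 24.7 and 25.2 FPKM in the Naive libraries (24.7 ± 0.548) and 28.8, 24.3, 29.7, 26.8 and 29.2 in the Resist libraries (27.8 ± 2.23), a log2 change of 0.16 (SE 0.06, adjusted p = 0.102). The groups overlapped for both genes, though 4 of the 5 Resist libraries were above every Naive library for Keap1.

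In the class of Nrf2 targets, with 2 of its 3 members tested, Hmox1 fell and none rose. This class does not hold all the Nrf2 targets among the members. Hmox1, which encodes the heme-degrading heme oxygenase 1, measured 11.2, 11.6, 9.38, 11.9 and 13.2 FPKM in the Naive libraries (11.5 ± 1.39) and 6.26, 8.04, 4.43, 4.17 and 7.85 in the Resist libraries (6.15 ± 1.83), a log2 change of -0.83 (SE 0.16, adjusted p = 0.00466). The highest Resist library was below the lowest Naive library. Srxn1, which encodes sulfiredoxin and repairs overoxidised peroxiredoxins, measured 16.1, 15.6, 21.6, 18.5 and 16.01 FPKM in the Naive libraries (17.6 ± 2.52) and 14.6, 14.4, 13.3, 15.5 and 13.8 in the Resist libraries (14.3 ± 0.836), a log2 change of -0.27 (SE 0.09, adjusted p = 0.0563). Its groups did not overlap either, but the adjusted p missed 0.05 and the fold was under 1.5.

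Genes of glutathione synthesis and recycling gave 0 calls among 4. Gclc, the catalytic subunit of the rate-limiting glutamate-cysteine ligase, measured 13.3, 13.01, 14.8, 12.5 and 13.6 FPKM in the Naive libraries (13.4 ± 0.837) and 13.02, 14.3, 17.2, 18.1 and 13.8 in the Resist libraries (15.3 ± 2.24), a log2 change of 0.17 (SE 0.09, adjusted p = 0.224). Its modifier subunit Gclm, with a motif in its promoter window, measured 67.8, 65.9, 67.9, 67.5 and 69.2 FPKM in the Naive libraries (67.7 ± 1.17) and 72.7, 72.6, 73.9, 61.2 and 75.5 in the Resist libraries (71.2 ± 5.67), a log2 change of 0.07 (SE 0.06, adjusted p = 0.466). Resist replicate 4 was below every Naive library for Gclm and the other Resist libraries were above them. Glutathione synthetase Gss averaged 12.97 ± 0.765 and 12.7 ± 0.946 FPKM, and glutathione reductase Gsr 50.6 ± 3.16 and 43.9 ± 3.24, with log2 changes of -0.03 and -0.20.

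Among glutathione peroxidases Gpx8 rose and the other 3 tested were not called. Gpx8, an enzyme of the endoplasmic reticulum membrane, measured 18.03, 18.97, 15.9, 19.6 and 15.6 FPKM in the Naive libraries (17.6 ± 1.79) and 35.6, 33.9, 32.6, 27.6 and 27.5 in the Resist libraries (31.4 ± 3.71), a log2 change of 0.80 (SE 0.09, adjusted p = 0.000277), the smallest adjusted p of all members. Every Resist library was above every Naive library. Gpx4, the enzyme that reduces lipid hydroperoxides and restrains ferroptosis, measured 529, 482, 466, 503 and 550.3 FPKM in the Naive libraries (506 ± 34.3) and 524, 631, 476, 455 and 414 in the Resist libraries (499.9 ± 83.03), a log2 change of -0.03 (SE 0.10, adjusted p = 0.861), a direction that turns under quantile normalization and under a length and GC correction. Gpx2, best known from the gut epithelium, measured 3.62, 2.96, 6.19, 1.71 and 2.01 FPKM in the Naive libraries (3.298 ± 1.79) and 2.55, 0.54, 1.45, 1.48 and 2.04 in the Resist libraries (1.61 ± 0.751), a log2 change of -0.68 (SE 0.27, adjusted p = 0.0974). It was low and scattered in either group. Gpx1, the cytosolic peroxidase and the most abundant of the class in Naive tumors, averaged 647 ± 67.95 and 529.9 ± 65.7 FPKM, a log2 change of -0.29, and was not called. Gpx4 has close copies (Gpx4-ps2 and AC122253.3), so its reads may be split or shared.

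Cytosolic glutathione transferases moved in both directions. Gstm1 and Gstm2, of the mu class, rose, Gstm5, of the same class, fell, and the other 4 tested were not called. Gstm1 measured 0.81, 1.03, 1.52, 2.38 and 0.69 FPKM in the Naive libraries (1.29 ± 0.689) and 6.72, 3.37, 4.5, 5.81 and 3.99 in the Resist libraries (4.88 ± 1.37), a log2 change of 1.38 (SE 0.20, adjusted p = 0.00115). Gstm2 measured 0.7, 0.61, 1.21, 1.95 and 0.37 FPKM in the Naive libraries (0.968 ± 0.629) and 2.08, 3.51, 4.75, 7.84 and 2.53 in the Resist libraries (4.14 ± 2.31), a log2 change of 1.33 (SE 0.28, adjusted p = 0.00723). In neither gene did a Resist library reach down to the Naive range, and the ratios of mean FPKM were 3.79 and 4.28, from levels near 1 FPKM in Naive tumors. Gstm1 has a close processed copy (Gstm2-ps1), so its reads may be split or shared. The call of Gstm2 was lost with all 4 groups in 1 fit (adjusted p = 0.0811, the highest over its alternatives, the lowest being 0.00134).

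Gstm5, whose promoter window holds a motif, measured 4.38, 4.8, 3.85, 7.56 and 4.53 FPKM in the Naive libraries (5.02 ± 1.46) and 3.7, 1.58, 1.46, 2.84 and 3.41 in the Resist libraries (2.598 ± 1.03), a log2 change of -0.77 (SE 0.21, adjusted p = 0.0238). The highest Resist library lay just below the lowest Naive library, and Naive replicate 4 stood far above the other Naive libraries. Without Naive replicate 4 the log2 change of Gstm5 was -0.63 (adjusted p = 0.0542), and without Resist replicate 3 it was -0.64 (adjusted p = 0.0574), so either library decides the call. Over all alternatives its adjusted p ran from 0.0136 to 0.0748. Without the filter on low values it was 0.0748.

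Gsta1, an alpha-class transferase, measured 10.2, 6.44, 10.5, 4.43 and 4.07 FPKM in the Naive libraries (7.14 ± 3.09) and 14.3, 15.1, 9.34, 30.02 and 5.48 in the Resist libraries (14.9 ± 9.34), a log2 change of 0.86 (SE 0.37, adjusted p = 0.121). The groups overlapped through Resist replicates 3 and 5. Without Resist replicate 5 the log2 change was 1.13 and the adjusted p 0.0248, the lowest over its alternatives, which ran up to 0.256. Gsta1 shares near-identical copies (Gsta2, Gm3776 and Gm10639), between which reads cannot be firmly assigned. Gsta4, which conjugates the lipid peroxidation product 4-hydroxynonenal, averaged 12.9 ± 4.12 and 24.8 ± 13.1 FPKM, a log2 change of 0.78 (SE 0.34, adjusted p = 0.124), and was likewise called without Resist replicate 5. Gstp1, the most abundant transferase here, measured 279, 250.2, 275, 265 and 303 FPKM in the Naive libraries (275 ± 19.4) and 244, 255, 244, 248 and 274 in the Resist libraries (253 ± 12.8), a log2 change of -0.12 (SE 0.06, adjusted p = 0.208). It was not called, and its copies Gstp2 and Gstp-ps make its level uncertain. Gsto1, of the omega class, averaged 38.3 ± 2.595 and 40.2 ± 7.33 FPKM, a log2 change of 0.05.

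Of the microsomal transferases Mgst2 rose, Mgst3 was not called and Mgst1 was under the filter. Mgst2, which can make leukotriene C4, measured 7.25, 5.12, 6.09, 6.62 and 6.73 FPKM in the Naive libraries (6.36 ± 0.807) and 16.9, 18.6, 13.1, 24.9 and 9.26 in the Resist libraries (16.5 ± 5.91), a log2 change of 1.19 (SE 0.20, adjusted p = 0.00219). All Resist libraries were above all Naive libraries, with Resist replicate 5 the closest. Mgst3, a relative of Mgst2 at far higher FPKM, measured 215, 171, 184, 179 and 209.99 FPKM in the Naive libraries (192 ± 19.5) and 158, 175, 116, 147 and 135 in the Resist libraries (146 ± 22.7), a log2 change of -0.40 (SE 0.11, adjusted p = 0.0227). It passed the adjusted p but its fold was under 1.5, and Resist replicate 2 lay within the Naive range. Mgst1 measured 2.59, 0.75, 0.32, 0.4 and 1.67 FPKM in the Naive libraries (1.15 ± 0.969) and 0, 0.27, 0.75, 1.61 and 1.09 in the Resist libraries (0.744 ± 0.642), at or below a few FPKM in every library.

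**Figure D2:**
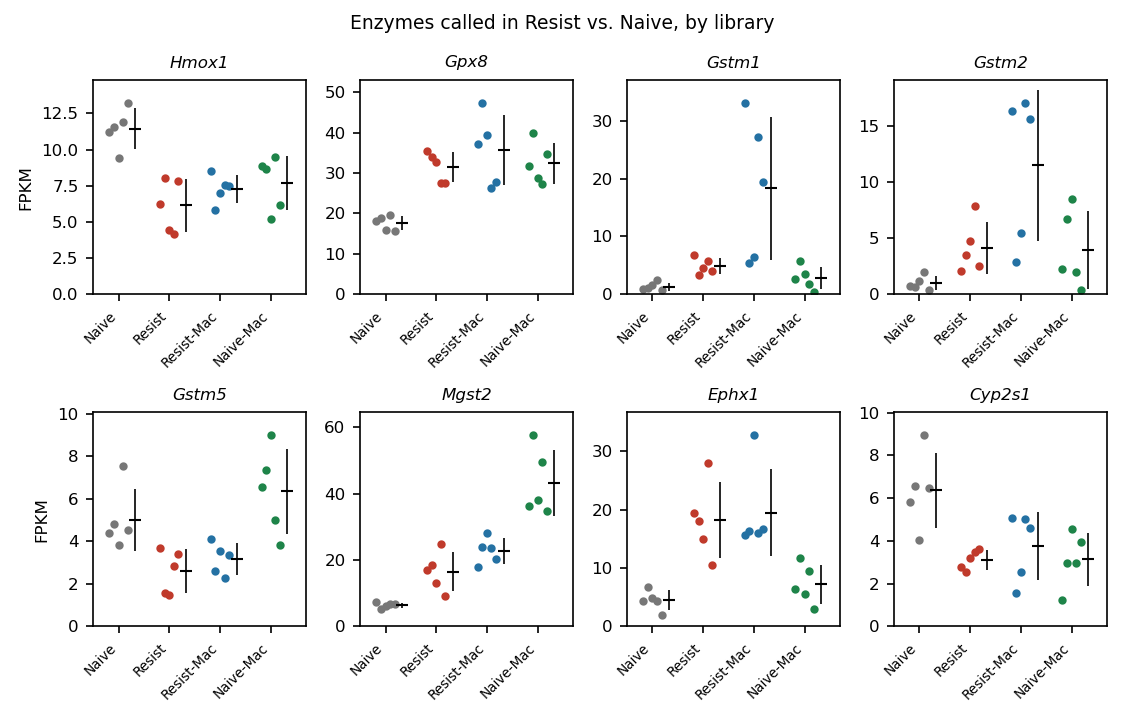
FPKM (y axis, linear from 0) of Hmox1, Gpx8, Gstm1, Gstm2, Gstm5, Mgst2, Ephx1 and Cyp2s1 in each library of the 4 groups, with points for libraries and a dash and bar for the mean ± SD. For Ephx1 the Resist points, 10.5 to 28.0 FPKM, all lie above the Naive points, 2.04 to 6.81 FPKM.

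The thioredoxin and peroxiredoxin genes, which reduce peroxides with thioredoxin, gave 0 calls among 7. Txn1, thioredoxin itself, measured 715, 573, 639, 596 and 639.8 FPKM in the Naive libraries (633 ± 54.5) and 597, 556, 588, 502 and 641 in the Resist libraries (577 ± 51.9), a log2 change of -0.13 (SE 0.08, adjusted p = 0.253). Prdx5, a peroxiredoxin of mitochondria and peroxisomes, measured 126, 108, 105, 105 and 126 FPKM in the Naive libraries (114 ± 10.99) and 105, 109, 108, 111 and 96.4 in the Resist libraries (106 ± 5.86), a log2 change of -0.10 (SE 0.07, adjusted p = 0.367). The groups overlapped for both genes. Mean FPKM in Naive and Resist tumors was 41.9 ± 5.35 and 40.4 ± 1.64 for thioredoxin reductase Txnrd1, 297 ± 20.2 and 269.8 ± 15.6 for Prdx1, and 152 ± 8.22 and 154 ± 8.604 for Prdx2. Log2 changes in the class ran from -0.27 (Prdx6) to 0.21 (the mitochondrial reductase Txnrd2). Pseudogene copies of Prdx1 (Gm21399 and Gm7204) may share its reads.

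Superoxide dismutases and catalase, and the pentose phosphate pathway, gave 0 calls as well, among 3 and 4 genes. Sod1, the cytosolic dismutase, measured 338, 338, 326, 324 and 351 FPKM in the Naive libraries (336 ± 11) and 375, 392, 348, 363 and 425 in the Resist libraries (381 ± 29.6), a log2 change of 0.18 (SE 0.06, adjusted p = 0.0623). Only Resist replicate 3 fell within the Naive range, and the fold was under 1.5. Taldo1, a transaldolase of the non-oxidative branch, measured 155, 145, 173, 145 and 150.5 FPKM in the Naive libraries (154 ± 11.4) and 128, 123, 127, 135 and 129 in the Resist libraries (128 ± 4.31), a log2 change of -0.26 (SE 0.06, adjusted p = 0.0122). Its groups did not overlap, but the fold was under 1.5, and a pseudogene copy (Gm17823) may share its reads. The NADPH-making enzymes G6pdx and Pgd averaged 49.8 ± 2.81 and 52.2 ± 5.89, and 82.9 ± 5.03 and 87.8 ± 12.5 FPKM. A close copy of G6pdx (G6pd2) may share its reads.

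Of the 3 phase I and carbonyl genes tested, Ephx1 rose, Cyp2s1 fell and Akr1b8 was not called. Ephx1, the microsomal epoxide hydrolase that opens xenobiotic epoxides, measured 4.43, 6.81, 4.82, 4.29 and 2.04 FPKM in the Naive libraries (4.48 ± 1.698) and 19.4, 18.1, 15.04, 28.01 and 10.5 in the Resist libraries (18.2 ± 6.46), a log2 change of 1.81 (SE 0.26, adjusted p = 0.000932). This was the largest log2 change of any member tested here, 4.07-fold by the ratio of mean FPKM, and the groups did not overlap. Cyp2s1, a cytochrome P450, measured 5.82, 6.56, 4.04, 8.94 and 6.47 FPKM in the Naive libraries (6.37 ± 1.76) and 2.78, 2.53, 3.18, 3.48 and 3.64 in the Resist libraries (3.12 ± 0.466), a log2 change of -0.81 (SE 0.16, adjusted p = 0.00457). The groups did not overlap. Akr1b8, an aldo-keto reductase, measured 37.1, 41.6, 38.4, 39.99 and 41.95 FPKM in the Naive libraries (39.8 ± 2.07) and 54.1, 61.95, 47.7, 48.5 and 40.9 in the Resist libraries (50.6 ± 7.88), a log2 change of 0.33 (SE 0.10, adjusted p = 0.0325). It passed the adjusted p at a fold under 1.5, with Resist replicate 5 inside the Naive range.

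Efflux pumps were the class with the most members called higher, 3 of 6 tested, with 0 called lower and a median log2 change of 0.50. Abcc3, which exports glucuronide and glutathione conjugates, measured 1.89, 1.73, 2.13, 1.7 and 1.66 FPKM in the Naive libraries (1.82 ± 0.193) and 7.33, 4.34, 4.86, 6.07 and 2.58 in the Resist libraries (5.04 ± 1.79), a log2 change of 1.04 (SE 0.19, adjusted p = 0.00311). Abcc4, which exports cyclic nucleotides and prostaglandins as well as drugs, measured 11.2, 13.4, 12.7, 8.57 and 15.3 FPKM in the Naive libraries (12.2 ± 2.52) and 18.9, 22.1, 18.6, 21.98 and 16.6 in the Resist libraries (19.6 ± 2.39), a log2 change of 0.66 (SE 0.13, adjusted p = 0.00576). Abcc5, a pump of organic anions and cyclic nucleotides, measured 5.75, 5.12, 6.62, 5.54 and 5.2 FPKM in the Naive libraries (5.65 ± 0.601) and 12.7, 13.7, 13.9, 20.9 and 10.8 in the Resist libraries (14.4 ± 3.83), a log2 change of 1.18 (SE 0.14, adjusted p = 0.000298). In all 3 every Resist library was above every Naive library. Abcc4 was no longer called without Naive replicate 4, where its log2 change of 0.55 gave a fold under 1.5 (adjusted p = 0.00861), nor with all 4 groups in 1 fit (adjusted p = 0.0540, the highest over its alternatives, the lowest being 0.00321).

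The classical multidrug pumps were not called. Abcb1a, one of the mouse genes for P-glycoprotein, measured 25.6, 28.9, 24.1, 27.4 and 33.7 FPKM in the Naive libraries (27.9 ± 3.699) and 36.1, 38.7, 46.9, 22.3 and 38.1 in the Resist libraries (36.5 ± 8.91), a log2 change of 0.34 (SE 0.16, adjusted p = 0.151). Resist replicate 4 was the lowest of all 10 libraries while the other 4 Resist libraries were above every Naive library. Abcb1b, the other P-glycoprotein gene, measured 28.1, 26.8, 26.2, 26.6 and 32.8 FPKM in the Naive libraries (28.1 ± 2.71) and 27.2, 29.7, 32.2, 26.9 and 30.1 in the Resist libraries (29.2 ± 2.22), a log2 change of 0.06 (SE 0.08, adjusted p = 0.642). Abcc1, which exports glutathione conjugates, measured 26.6, 32.3, 26.7, 32.2 and 30.7 FPKM in the Naive libraries (29.7 ± 2.83) and 26.8, 30.8, 31.8, 29.9 and 30.1 in the Resist libraries (29.9 ± 1.901), a log2 change of 0.01 (SE 0.08, adjusted p = 0.934). The groups overlapped widely for both, and the sign of both small changes turns under median-ratio scaling.

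**Figure D3:**
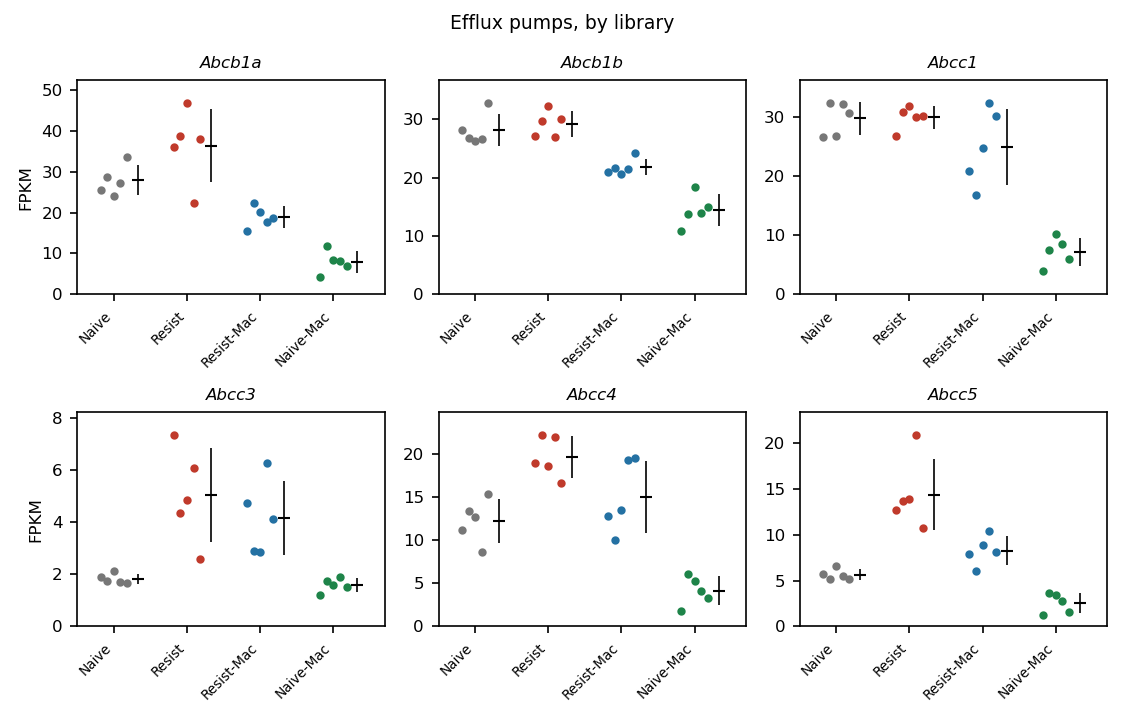
FPKM (y axis, linear from 0) of the pumps Abcb1a, Abcb1b, Abcc1, Abcc3, Abcc4 and Abcc5 in each library of the 4 groups, with points for libraries and a dash and bar for the mean ± SD. Abcc3, Abcc4 and Abcc5 are higher in all Resist than in all Naive libraries, and Abcc1 is lowest in Naive-Mac tumors, at 3.89 to 10.1 FPKM.

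The promoter motif was counted in the called members. Of the 8 that rose, 7 had a window and 1 (Abcc4) held a motif, and of the 3 that fell, 2 had a window and 1 (Gstm5) held a motif. Over all members with a window the share was 27.1%, and over all genes it was 14%.

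Other genes of the same pathways, which are not members, were followed with 6 lists in Resist vs. Naive, where 5.25% of all genes tested rose and 1.11% fell. Of 19 further genes of the Nrf2 network tested, 2 rose and 0 fell: Fth1, the ferritin heavy chain, from 853 to 1360 FPKM (log2 change 0.67, SE 0.09, adjusted p = 0.000462), and Ptgr1, a prostaglandin reductase (0.69, SE 0.17, adjusted p = 0.0152). The cystine transporter, Maf partners and other genes in that list made up the 17 not called, of which 7 passed the adjusted p at a fold under 1.5. Of 15 further glutathione genes 1 fell, Chac1, which degrades glutathione (-0.62, SE 0.20, adjusted p = 0.0478). Of 13 further thioredoxin and peroxide genes Msrb3 and Sesn3 rose, by 0.88 and 0.82 on the log2 scale, and of 9 further NADPH sources Nnt, the mitochondrial transhydrogenase, rose by 0.65. Of 12 genes for xenobiotic receptors and metabolism 2 rose, Ugt1a6a (1.31) and Sult1a1 (0.80), both of which conjugate drugs. Among 5 further pumps Abcc2, an exporter of glutathione conjugates related to Abcc3, fell from 39.2 to 20.6 FPKM (-0.94, SE 0.20, adjusted p = 0.00871).

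In Resist vs. Naive, 0 of 3 macrophage, 0 of 7 neutrophil and 0 of 3 osteoblast and stroma markers tested were called, while the 1 erythroid marker tested, Hba-a1, rose (88.9 to 153 FPKM). Still, all 7 neutrophil markers had changes below 0 (median log2 change -0.98) and all 3 stroma markers above 0 (median 0.89). Of the macrophage markers 1 was above and 2 were below 0 (median -0.75). Summed stroma markers were 10.7 to 16.3 FPKM in Naive and 11.4 to 33.0 in Resist libraries. The part of such cells in the members' changes was not tested.

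The comparisons with macrophage-depleted tumors cross batches and tables, so depletion and batch cannot be told apart in them. They also showed a trend that members shared with all genes. The log2 change was higher for longer transcripts, with Spearman's rho across members of 0.66 when Resist was set against Resist-Mac (n = 46) and 0.82 when Naive was set against Naive-Mac (n = 45), but 0.04 between the Resist and Naive groups of batch 1 (n = 44). Over all genes tested these were 0.67, 0.74 and 0.17, as descriptions across genes that share libraries. In Resist vs. Resist-Mac, of 24 members with transcripts under 2000 bases 12 were lower in Resist and 0 higher (median -0.60), and of the 8 members of at least 4000 bases 0 were lower and 2 higher (median 0.34). In Naive vs. Naive-Mac the same lengths gave 15 of 23 lower and 0 higher (median -1.11), and 0 of 8 lower and 5 higher (median 0.95). Most glutathione peroxidases and transferases are among the short members, and 6 of the 8 long ones are pumps. Changes of members in these comparisons are therefore followed by the value after a correction that removes a smooth trend with the length and GC content of the principal transcript from every library, an alternative added after seeing the data. The form with the longest transcript is given where it changed the call of a member described or moved a called value by over 1.5 times. The correction turned the sign of 16 of the 46 members tested in Resist vs. Resist-Mac, 0 of them called, and of 20 of the 45 in Naive vs. Naive-Mac, 9 of them called.

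**Figure D4:**
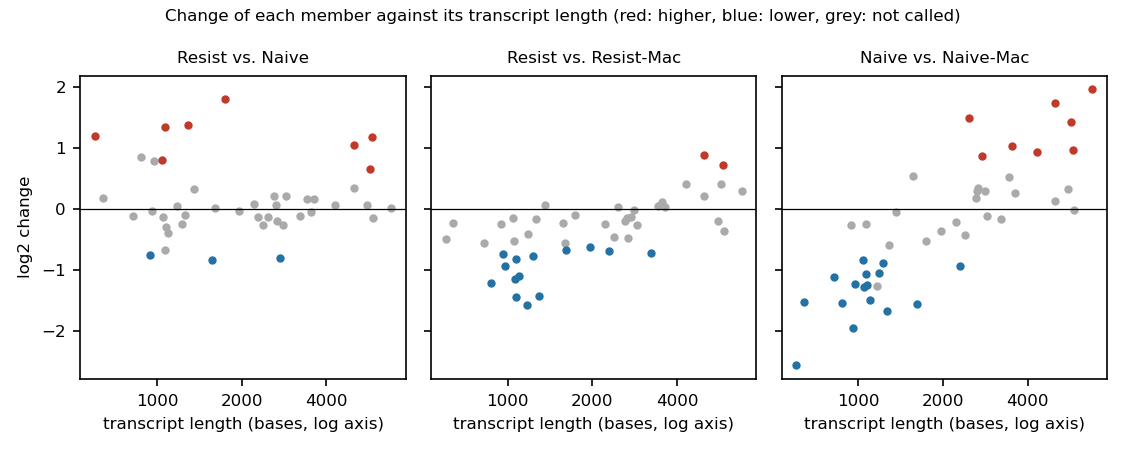
Log2 change of each member tested (y axis) against the length of its principal transcript in bases (x axis, log scale) in 3 comparisons, with red for called higher in the first group, blue for called lower and grey for not called. The points climb from left to right in both comparisons with depleted tumors, and show no such slope within batch 1.

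Resist vs. Resist-Mac was the comparison for macrophage depletion in resistant tumors, and 16 of 46 members tested were called in it. Abcb1a and Abcc5 were higher in Resist (2 members, 4.35%, against 9.71% of all genes tested) and 14 were lower (30.4%, against 12% of all genes tested). The median log2 change was -0.25 over the members and -0.02 over all genes. With the correction 4 of the 46 were called, 1 higher and 3 lower, where 352 of 10027 genes tested were higher and 492 lower. Of these 4 members 3 were among the 16, namely Abcb1a, higher in Resist, and Mgst3 and Tkt, lower. The other was Sod2, the mitochondrial dismutase, at -0.37 before and -0.71 after the correction (adjusted p = 0.00178).

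The regulators and the class of Nrf2 targets gave 0 calls in Resist vs. Resist-Mac, and Gclc and Gclm were not called either. Nfe2l2 measured 21.9, 16.7, 16.7, 24.4 and 22.3 FPKM in the Resist-Mac libraries (20.4 ± 3.52), a log2 change of 0.03 (SE 0.12, adjusted p = 0.874), or 0.13 with the correction. Keap1 measured 26.7, 21.98, 26.7, 29.5 and 32.3 (27.4 ± 3.83), a log2 change of 0.02 (SE 0.11, adjusted p = 0.878), or -0.15 with the correction. The sign of both small changes turns when single libraries are left out, and that of Keap1 also with the correction. Hmox1 measured 8.51, 5.82, 7, 7.54 and 7.45 FPKM in the Resist-Mac libraries (7.26 ± 0.977), a log2 change of -0.24 (SE 0.17, adjusted p = 0.281), or 0.058 with the correction. Its Resist-Mac libraries overlapped the Resist libraries. Gclc measured 13.5, 12.8, 13.8, 16.7 and 17.3 FPKM in the Resist-Mac libraries (14.8 ± 2.04), a log2 change of 0.05 (SE 0.12, adjusted p = 0.785), or -0.063 with the correction. Gclm measured 78.8, 84.4, 88.1, 80.2 and 77.8 (81.9 ± 4.302), a log2 change of -0.20 (SE 0.08, adjusted p = 0.0626), or -0.51 with the correction. All Resist-Mac libraries exceeded all Resist libraries for Gclm, at a fold under 1.5, and its sign turns under quantile normalization. Srxn1, at 11.9, 12.04, 13.9, 16.9 and 19.1 FPKM (14.8 ± 3.17), had a log2 change of -0.019, or -0.045 with the correction.

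The members lower in Resist than in Resist-Mac were led by Mgst1, Gpx2, Gstm1, Gsta1 and Gstm2. Of these, all but Gsta1 averaged a few FPKM or less in Resist. Mgst1, a membrane transferase and peroxidase abundant in liver, measured 17.2, 1.18, 0.88, 3.64 and 7.31 FPKM in the Resist-Mac libraries (6.04 ± 6.74), a log2 change of -1.58 (SE 0.54, adjusted p = 0.0327), or -1.05 with the correction (adjusted p = 0.206). Resist-Mac replicate 1 was far above the rest and replicates 2 and 3 were within the Resist range. The call of Mgst1 was lost without any of Resist replicates 1 to 3 or Resist-Mac replicates 1 and 5, and its adjusted p ran from 0.0116 to 0.228 over the alternatives. Gpx2 measured 4.46, 26.3, 2.34, 3.7 and 5.34 FPKM in the Resist-Mac libraries (8.42 ± 10.04), a log2 change of -1.44 (SE 0.46, adjusted p = 0.0241), or -0.94 with the correction (adjusted p = 0.143) and -1.41 in its longest-transcript form (adjusted p = 0.0454), which kept the call. Resist-Mac replicate 2 was far above the others, and without Resist replicate 2, the lowest Resist library, the call was lost (adjusted p from 0.00776 to 0.143 over the alternatives).

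Gstm1 measured 33.1, 5.31, 6.43, 27.2 and 19.4 FPKM in the Resist-Mac libraries (18.3 ± 12.3), a log2 change of -1.44 (SE 0.43, adjusted p = 0.0168), or -1.04 with the correction (adjusted p = 0.114). Gstm2 measured 16.4, 2.88, 5.5, 17.1 and 15.7 FPKM in the Resist-Mac libraries (11.5 ± 6.76), a log2 change of -1.15 (SE 0.43, adjusted p = 0.0488), or -0.65 with the correction (adjusted p = 0.346). For both, Resist-Mac replicates 1, 4 and 5 were high and replicates 2 and 3 lay within the Resist range, and 13 of 21 alternatives ended the call of Gstm2. In their column names Resist-Mac replicates 2 and 3 share a prefix, replicates 4 and 5 share another, and replicate 1 has neither. The labels do not say what these prefixes mean, and their part in the spread was not tested. Gsta1 measured 27.4, 29.2, 20.6, 52.8 and 34.1 FPKM in the Resist-Mac libraries (32.8 ± 12.2), a log2 change of -1.22 (SE 0.36, adjusted p = 0.0152), or -0.59 with the correction (adjusted p = 0.314). Only Resist replicate 4 reached into its Resist-Mac range. Neither Gstm5 nor Mgst2 was called. Gstm5, at 4.1, 2.59, 3.54, 2.26 and 3.36 FPKM (3.17 ± 0.742), had a log2 change of -0.25, or 0.32 with the correction. Mgst2, at 17.9, 24.1, 28.2, 23.5 and 20.4 FPKM (22.8 ± 3.89), had a log2 change of -0.49, or 0.32 with the correction and -0.36 in its longest-transcript form. Gsta4, called at -0.94, was -0.38 with the correction and lost its call under 12 of 21 alternatives.

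Of the 10 members over 100 FPKM, 6 were called lower in Resist, namely Gpx1, Gpx4, Mgst3, Prdx1, Prdx2 and Taldo1, and their sign held with the correction. The correction turned the sign of the other 4, Gstp1, Txn1, Prdx5 and Sod1. Mgst3 measured 342, 348, 287, 304 and 289 FPKM in the Resist-Mac libraries (314 ± 29.3), a log2 change of -1.11 (SE 0.11, adjusted p = 2.88e-05), or -0.62 with the correction (adjusted p = 0.00109) and -0.57 in its longest-transcript form, at a fold under 1.5. Gpx4 measured 859, 1072, 862, 664 and 743 FPKM in the Resist-Mac libraries (840 ± 154), a log2 change of -0.74 (SE 0.14, adjusted p = 0.00145), or -0.18 with the correction. Taldo1 measured 228, 227, 207, 203 and 233 FPKM in the Resist-Mac libraries (219.7 ± 13.7), a log2 change of -0.77 (SE 0.07, adjusted p = 1.67e-05), or -0.34 with the correction. For these 3 genes every Resist-Mac library was above every Resist library.

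Log2 changes were -0.83 for Gpx1, -0.70 for Prdx1, -0.68 for Prdx2 and -0.63 for Gss, and with the correction -0.33, -0.48, -0.39 and -0.45, where none of these 4 was called. Gss kept its call in the longest-transcript form, at -0.61 (adjusted p = 0.00108). The transketolase Tkt was called at -0.73 and, with the correction, at -0.83. Quantile normalization, which has no length term, also ended the calls of Gpx1 (-0.17), Gpx4 (-0.093), Prdx1 (-0.14), Prdx2 (-0.25), Taldo1 (-0.36) and Gsta4 (-0.81).

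Gpx8, Gstp1, Txn1, Prdx5 and Sod1 were not called. Gpx8, at 37.3, 47.4, 39.5, 26.3 and 27.9 FPKM (35.7 ± 8.71), had a log2 change of -0.15, or 0.45 with the correction (adjusted p = 0.00995), at a fold under 1.5. Gstp1, at 409, 412, 387, 359.9 and 316 FPKM (377 ± 39.8), had a log2 change of -0.57, or 0.063 with the correction. Txn1, at 897, 1058, 869, 672 and 712 FPKM (842 ± 155), had a log2 change of -0.53, or 0.018 with the correction. Prdx5, at 157, 121, 109.6, 95.7 and 118 FPKM (120.2 ± 22.7), had a log2 change of -0.16, or 0.26 with the correction. Sod1, at 489, 509.8, 537, 382 and 356 FPKM (455 ± 80.6), had a log2 change of -0.24, or 0.50 with the correction (adjusted p = 0.00386), at a fold under 1.5, and -0.35 in its longest-transcript form.

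Among the pumps Abcb1a and Abcc5 were higher in Resist. Abcb1a measured 15.5, 22.5, 20.2, 17.6 and 18.7 FPKM in the Resist-Mac libraries (18.9 ± 2.64) against 36.5 ± 8.91 in Resist, a log2 change of 0.89 (SE 0.17, adjusted p = 0.0014), or 0.59 with the correction (adjusted p = 0.0251). Resist replicate 4 alone, at 22.3 FPKM, lay within the Resist-Mac range. Abcc5 measured 7.92, 6.01, 8.85, 10.4 and 8.16 FPKM in the Resist-Mac libraries (8.28 ± 1.604), a log2 change of 0.72 (SE 0.17, adjusted p = 0.00482), or 0.26 with the correction (adjusted p = 0.208). Every Resist library of Abcc5 was above every Resist-Mac library, and its call was lost without Resist replicate 4, the highest. The other 4 pumps tested were not called. Abcb1b, at 20.97, 21.6, 20.7, 21.4 and 24.2 FPKM (21.8 ± 1.41), had a log2 change of 0.41, or 0.19 with the correction. Abcc1, at 20.8, 16.7, 24.7, 32.3 and 30.1 FPKM (24.9 ± 6.43), had a log2 change of 0.29, or -0.25 with the correction. Abcc3, at 4.73, 2.91, 2.85, 6.27 and 4.1 FPKM (4.17 ± 1.42), had a log2 change of 0.21, or -0.16 with the correction. Abcc4, at 12.8, 9.96, 13.5, 19.2 and 19.5 FPKM (15 ± 4.204), had a log2 change of 0.40, or -0.038 with the correction.

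The phase I and carbonyl genes were not called in Resist vs. Resist-Mac either. Ephx1, at 15.6, 16.3, 32.7, 15.9 and 16.7 FPKM (19.5 ± 7.42), had a log2 change of -0.10, or 0.15 with the correction. Cyp2s1, at 5.05, 1.58, 2.56, 5.03 and 4.61 FPKM (3.77 ± 1.596), had a log2 change of -0.14, or -0.14 with the correction. Akr1b8, at 47.1, 54.3, 52.9, 37.97 and 48.5 FPKM (48.1 ± 6.43), had a log2 change of 0.069, or 0.44 with the correction. The groups overlapped for all 3.

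Beside these members, 5 of 8 neutrophil and 2 of 3 macrophage markers tested were lower in Resist than in Resist-Mac, with S100a8 at 22.3 to 191 FPKM in Resist and 164 to 3636 in Resist-Mac libraries. The marker and pathway values given here are without the length and GC correction. Of the stroma markers tested 1 of 3 was higher in Resist and 0 were lower. The prostate marker Krt8 was higher (log2 change 0.74, adjusted p = 0.0353), while 1 prostate marker tested had a change below 0 and was not called. The 6 pathway lists gave 1 higher and 1 lower of 19 for the further Nrf2 network, 0 and 4 of 16 for glutathione, 2 and 5 of 13 for thioredoxin and peroxide, 0 and 1 of 9 for NADPH, 1 and 1 of 11 for xenobiotic genes and 2 and 0 of 5 for further pumps, where 9.71% of all genes tested were higher and 12% lower.

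In Naive vs. Naive-Mac, macrophage depletion in naive tumors, 24 of 45 members tested were called. Of these 8 were higher in Naive (17.8%, against 37.5% of all genes tested) and 16 lower (35.6%, against 22.1% of all genes tested). The median log2 change was -0.25 over the members and 0.23 over all genes, a shift of all genes that was -0.05 with median-ratio scaling and -0.08 with quantile normalization. With the length and GC correction 16 were called, 10 higher and 6 lower, where 2943 of 9655 genes tested were higher and 833 lower. The median with this correction was 0.08 over the members and 0.27 over all genes. The correction thus left the shift of all genes in place, and corrected values and calls in this comparison include it. Among these 16 were 10 of the 24. Of those 10, Gpx8 was called in the opposite direction. The 6 called only with the correction were Hmox1, Gpx2, Gstm5 and Akr1b8, higher in Naive, and Sod2 and Abcc3, lower.

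Nfe2l2 was higher in Naive than in Naive-Mac tumors with and without the correction. It measured 5.15, 8.62, 9.79, 7.78 and 6.43 FPKM in the Naive-Mac libraries (7.55 ± 1.82) against 22.7 ± 1.93 in Naive tumors, a log2 change of 1.49 (SE 0.14, adjusted p = 4.56e-07), or 1.81 with the correction (adjusted p = 1.86e-07). Every Naive-Mac library was below every Naive library. Keap1 measured 17.4, 22.7, 21.9, 21.5 and 18.7 FPKM in the Naive-Mac libraries (20.4 ± 2.25), a log2 change of 0.27 (SE 0.09, adjusted p = 0.0153), or -0.32 with the correction, and was not called. Its sign also turned with median-ratio scaling. Hmox1 measured 8.87, 8.66, 5.2, 9.46 and 6.17 FPKM in the Naive-Mac libraries (7.67 ± 1.87), a log2 change of 0.54 (SE 0.15, adjusted p = 0.00557), at a fold under 1.5, while the correction gave 1.29 (adjusted p = 3.67e-06). Gclc measured 4.29, 9.87, 13.4, 10.2 and 10.1 FPKM in the Naive-Mac libraries (9.58 ± 3.297), a log2 change of 0.52 (SE 0.21, adjusted p = 0.0364), or 0.28 with the correction. Gclm measured 45.7, 56.5, 59.8, 59.9 and 49.6 (54.3 ± 6.36), a log2 change of 0.32 (SE 0.09, adjusted p = 0.00399), or -0.39 with the correction. Srxn1, at 11.9, 13.6, 19, 16.1 and 11.1 FPKM (14.3 ± 3.25), had a log2 change of 0.29, or 0.20 with the correction. None of these 3 was called.

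Lower in Naive than in Naive-Mac tumors were 3 of 4 glutathione peroxidases, 5 of 7 cytosolic and 2 of 3 microsomal transferases tested, and 4 of 7 thioredoxin and peroxiredoxin genes, of which 1 was higher. Among these the correction kept the direction and call of Gpx4, Mgst2, Prdx2 and Prdx5. Gpx4 measured 2511, 2109.97, 1711, 1812 and 1793 FPKM in the Naive-Mac libraries (1988 ± 329) against 506 ± 34.3, a log2 change of -1.96 (SE 0.10, adjusted p = 1.97e-09), or -0.82 with the correction (adjusted p = 8.03e-08). Mgst2 measured 36.3, 57.6, 38.2, 49.5 and 34.6 FPKM in the Naive-Mac libraries (43.2 ± 9.91) against 6.36 ± 0.807, a log2 change of -2.57 (SE 0.14, adjusted p = 3.72e-09), or -0.80 with the correction (adjusted p = 0.00431) and -2.17 in its longest-transcript form (adjusted p = 6.81e-08). Prdx5 measured 422, 343, 381, 395 and 292 FPKM in the Naive-Mac libraries (367 ± 50.4) against 114 ± 10.99, a log2 change of -1.67 (SE 0.10, adjusted p = 7.57e-09), or -0.79 with the correction (adjusted p = 1.44e-05). Every Naive-Mac library was above every Naive library for these 3, and Mgst2, whose transcript is the shortest of the members, had the largest difference. Prdx2, a peroxiredoxin abundant in red cells, averaged 152 ± 8.22 FPKM in Naive tumors against 455 ± 70.9 in Naive-Mac, a log2 change of -1.56 (SE 0.10, adjusted p = 1.43e-08), or -0.78 with the correction. The 1 erythroid marker tested, Hba-a1, was at 53.4 to 104 FPKM in Naive and 212 to 947 in Naive-Mac libraries. The marker values in this comparison are without the length and GC correction. Of the neutrophil markers 2 of 8 tested were lower in Naive and 0 higher (median log2 change -1.56), of the macrophage markers 0 of 2 were called, and of the stroma markers 2 of 2 were higher. The prostate marker Krt8 was higher in Naive (log2 change 0.67) and Hoxb13 lower (-0.77). Their part in the members' changes was not tested.

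The other abundant enzymes lost their call with the correction. Sod1 measured 1149, 923, 913, 954 and 918 FPKM in the Naive-Mac libraries (971 ± 101), a log2 change of -1.53 (SE 0.07, adjusted p = 1.24e-09), but 0.018 with the correction, while the longest-transcript form kept the call at -1.78 (adjusted p = 4.58e-09). Txn1 measured 1813, 1433, 1452, 1386 and 1610 FPKM in the Naive-Mac libraries (1539 ± 175), a log2 change of -1.28 (SE 0.09, adjusted p = 2.03e-08), but 0.074 with the correction. Mgst3 measured 692, 493, 471, 494 and 572 FPKM in the Naive-Mac libraries (545 ± 91.2), a log2 change of -1.49 (SE 0.11, adjusted p = 3.65e-08), but -0.31 with the correction. In FPKM all 3 had every Naive-Mac library above every Naive library, and quantile normalization, which has no length term, gave -0.59 for Sod1, -0.28 for Txn1 and -0.62 for Mgst3, ending the call of Txn1. Gstp1 measured 663, 693, 519, 531 and 583 FPKM in the Naive-Mac libraries (598 ± 77.8), a log2 change of -1.11 (SE 0.09, adjusted p = 1.12e-07), but 0.21 with the correction. Taldo1 measured 291, 252, 332, 301 and 258 FPKM in the Naive-Mac libraries (287 ± 32.9), a log2 change of -0.89 (SE 0.09, adjusted p = 6.19e-07), but 0.11 with the correction. Gsta1 measured 18.9, 29.4, 20.97, 20.4 and 18.5 FPKM in the Naive-Mac libraries (21.6 ± 4.48), a log2 change of -1.54 (SE 0.23, adjusted p = 3.64e-05), but -0.047 with the correction. The last 3 again did not overlap in FPKM. Gpx1 (-1.26), Prdx1 (-0.94), Gsto1 (-1.06) and Gsta4 (-1.23) were called lower and were not called with the correction, which gave -0.19 for Gpx1 and -0.29 for Prdx1 and turned the sign of Gsto1 (0.028) and Gsta4 (0.11). Quantile normalization ended the calls of Gstp1 (-0.20), Taldo1 (-0.16), Gpx1 (-0.24) and Prdx1 (-0.02).

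**Figure D5:**
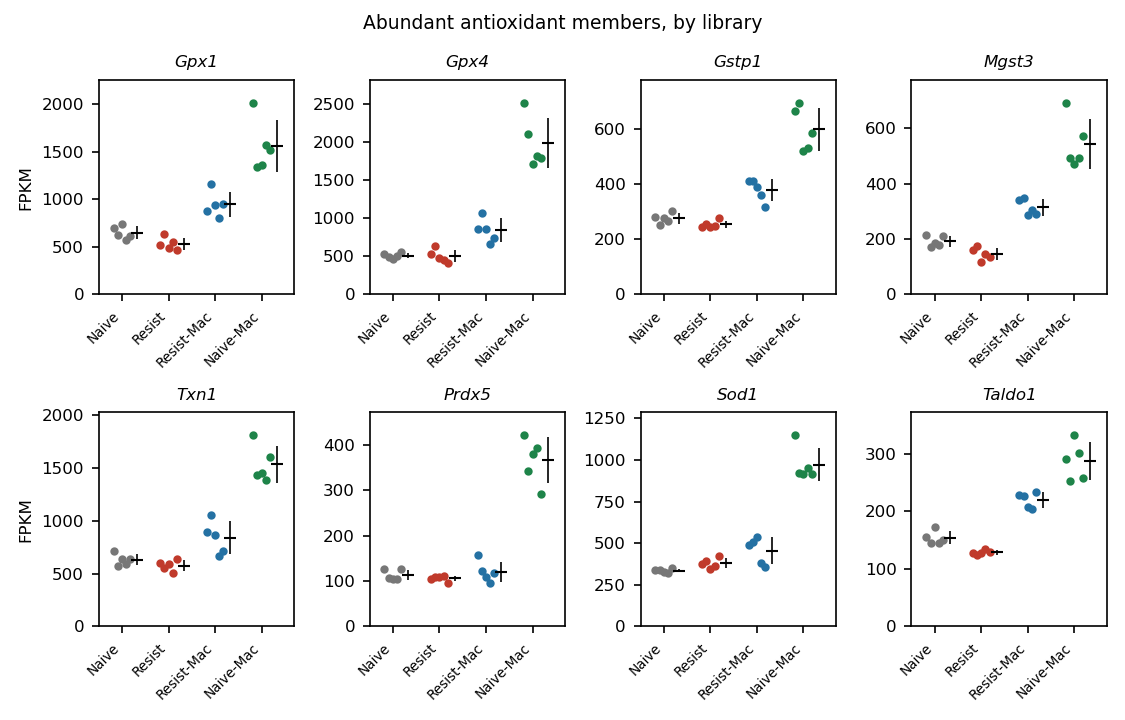
FPKM (y axis, linear from 0) of the abundant members Gpx1, Gpx4, Gstp1, Mgst3, Txn1, Prdx5, Sod1 and Taldo1 in each library of the 4 groups, with points for libraries and a dash and bar for the mean ± SD. Each gene is highest in Naive-Mac tumors, as for Gpx4 with 1711 to 2511 FPKM there and 466 to 550 FPKM in Naive tumors, and all have transcripts under 2000 bases.

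Gpx8 measured 31.7, 39.9, 28.7, 27.2 and 34.7 FPKM in the Naive-Mac libraries (32.4 ± 5.04) against 17.6 ± 1.79, a log2 change of -0.84 (SE 0.11, adjusted p = 1.44e-05), which the correction turned to 0.65 (adjusted p = 0.00124). Gstm2 measured 2.28, 6.75, 8.54, 1.95 and 0.36 FPKM in the Naive-Mac libraries (3.98 ± 3.49), a log2 change of -1.06 (SE 0.44, adjusted p = 0.0402), or 0.13 with the correction, and its adjusted p ran from 0.00258 to 0.818 over the alternatives. Naive-Mac replicates 2 and 3 were the high ones for Gstm2, and its call was lost without either of them and without any of Naive replicates 1, 2, 3 and 5.

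Of the members not called in FPKM, Gstm5, Gpx2 and Akr1b8 were called higher in Naive with the correction. Gstm5, at 6.55, 7.38, 9, 5.01 and 3.83 FPKM (6.35 ± 2.02), had a log2 change of -0.27, or 1.06 with the correction (adjusted p = 0.00102). Gpx2, at 2.5, 6.93, 2.06, 5.77 and 3.42 FPKM (4.14 ± 2.12), had a log2 change of -0.25, or 0.89 with the correction (adjusted p = 0.0284) and -0.13 in its longest-transcript form, which was not called. Akr1b8, at 33.5, 52.4, 43.5, 41.3 and 36.9 FPKM (41.5 ± 7.23), had a log2 change of -0.045, or 0.92 with the correction (adjusted p = 9.95e-05). With quantile normalization Gstm5 (-0.90) and Gpx2 (-0.91) were instead called lower in Naive. Gstm1, Mgst1 and Ephx1 were called neither in FPKM nor with the correction. Gstm1, at 2.63, 5.69, 3.47, 1.7 and 0.45 FPKM (2.79 ± 1.97), had a log2 change of -0.60, or 0.36 with the correction. Mgst1, at 4.22, 0, 18.1, 7.66 and 1.89 FPKM (6.38 ± 7.17), had a log2 change of -1.27, or 0.068 with the correction. Ephx1, at 6.36, 11.6, 5.52, 9.46 and 2.96 FPKM (7.19 ± 3.403), had a log2 change of -0.53, or 0.083 with the correction. Quantile normalization called these 3 lower too, at -1.21, -1.70 and -1.14.

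Cyp2s1 measured 1.25, 2.95, 4.54, 2.96 and 3.95 FPKM in the Naive-Mac libraries (3.13 ± 1.25) against 6.37 ± 1.76, a log2 change of 0.86 (SE 0.23, adjusted p = 0.00413), or 0.75 with the correction, and with quantile normalization its call was lost, at 0.19 (adjusted p = 0.391). Naive-Mac replicate 3 lay within the Naive range. Thioredoxin reductase Txnrd1 averaged 41.9 ± 5.35 FPKM in Naive tumors against 20.7 ± 5.67 in Naive-Mac, a log2 change of 1.03 (SE 0.18, adjusted p = 0.000169), or 0.65 with the correction.

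Pumps were the other side of Naive vs. Naive-Mac, with 5 of 6 tested higher in Naive and 0 lower, of which Abcb1a and Abcc1 kept the call with the correction. The median over all genes was 0.27 with the correction, a shift that the corrected values include. Abcc1 measured 3.89, 7.4, 10.1, 8.46 and 5.96 FPKM in the Naive-Mac libraries (7.16 ± 2.37) against 29.7 ± 2.83, a log2 change of 1.96 (SE 0.18, adjusted p = 3.91e-07), or 0.63 with the correction (adjusted p = 0.00233). Abcb1a measured 4.33, 11.8, 8.44, 8.06 and 6.97 FPKM in the Naive-Mac libraries (7.92 ± 2.702) against 27.9 ± 3.699, a log2 change of 1.74 (SE 0.19, adjusted p = 1.68e-06), or 1.03 with the correction (adjusted p = 0.000179). The Naive libraries were above all Naive-Mac libraries for both. Abcb1b measured 10.8, 13.8, 18.4, 13.9 and 14.9 FPKM in the Naive-Mac libraries (14.4 ± 2.72), a log2 change of 0.93 (SE 0.12, adjusted p = 1.12e-05), or 0.42 with the correction and 0.62 in its longest-transcript form, which kept the call. Abcc4 measured 1.79, 6.11, 5.26, 4.05 and 3.34 FPKM in the Naive-Mac libraries (4.11 ± 1.68), a log2 change of 1.42 (SE 0.23, adjusted p = 6.92e-05), or 0.35 with the correction. Abcc5 measured 1.28, 3.67, 3.42, 2.72 and 1.57 FPKM in the Naive-Mac libraries (2.53 ± 1.07), a log2 change of 0.97 (SE 0.19, adjusted p = 0.000444), or -0.16 with the correction, a turn of sign, and 0.27 with quantile normalization, which ended the call. Abcc3 was not called at 1.22, 1.73, 1.58, 1.91 and 1.51 FPKM (1.59 ± 0.258), and the correction called it lower in Naive, at -0.88. The 6 pathway lists, in the order above, gave 6 higher and 5 lower of 18, 0 and 8 of 15, 2 and 4 of 12, 2 and 1 of 9, 3 and 3 of 10 and 3 and 0 of 5, where 37.5% of all genes tested were higher and 22.1% lower.

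Whether depletion went with a different change in resistant than in naive tumors was tested as the difference between the 2 effects. Of 46 members tested 16 were called (34.8%), against 40.7% of all genes tested, with 8 in each direction and a median of -0.20 over members and -0.28 over all genes. Each effect is taken as the undepleted minus the depleted group. The difference was positive for Gpx4 (1.22 (SE 0.18, adjusted p = 1.23e-05)), Gpx8 (0.69), Gsto1 (0.65), Mgst2 (2.07), Txn1 (0.75), Prdx2 (0.88), Prdx5 (1.51) and Sod1 (1.28). It was negative for Nfe2l2 (-1.47 (SE 0.19, adjusted p = 2.4e-06)), Hmox1 (-0.78), Gsr (-0.83), Txnrd1 (-0.91), Cyp2s1 (-1.004), Abcb1a (-0.86), Abcc1 (-1.67) and Abcc4 (-1.02). The first 8 genes have transcripts under 2000 bases, with the Naive-Mac libraries highest for all but Gpx8, and the other 8 hold 3 pumps that were lowest in Naive-Mac. No sign among these 16 turned with median-ratio scaling or quantile normalization, but median-ratio scaling ended the calls of Hmox1, Gsr, Txnrd1, Cyp2s1 and Abcb1a and called 12 members higher and 3 lower. Quantile normalization called 8 higher and 4 lower, where 1393 of all genes were called higher and 1598 lower. Over all genes 801 were called higher and 3214 lower, but 1948 and 2108 with median-ratio scaling, and the median went from -0.28 to 0.02. All 3 batches enter this difference and cannot be told apart from it, and with the length and GC correction, which turned the sign of Gpx8 and Txn1 among the 16, 11 members were called, 4 higher and 7 lower. Of all 9854 genes tested with the correction, 352 were called higher and 2636 lower.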

How the data were processed

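Tumor cells sorted by FACS were sequenced by the authors on a BGISEQ-500 as paired ends. The submitters' processing notes name Bowtie2 and mm9, and the quantification tool and gene annotation are not given in the sources used here. The authors deposited FPKM per gene and library in a table each for Resist-Mac and for Naive-Mac tumors. For Naive and Resist tumors the deposited values are log2(FPKM + 1) and were turned back to FPKM, which gave 2 decimals for 100% of values (tolerance 1e-04 FPKM). BGI_novel genes, 752 of 17485 in that table and 8.45% of its FPKM, were removed as in the study. The tables hold no read counts, so library depth is unknown and intervals for counting error could not be given. Entrez identifiers were named with a RefSeq table, which matched 16613, 15827 and 14053 of them in the Naive and Resist, Naive-Mac and Resist-Mac tables.

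The members, role classes and pathway and marker lists were chosen with earlier results of these data known. Some prostate markers are not reported here. Groups and replicate numbers came from the sample titles and batches from the labels. The study called genes with NOISeq, and here limma 3.58.1 in R 4.3.3 was run on log2(FPKM + 1), with a pseudocount of 1 FPKM, a minimum mean of 1 FPKM, a trend in the prior variance and only the groups compared, with calls at an adjusted p under 0.05 and a fold over 1.5. The difference between the depletion effects used all 20 libraries and genes listed in all 3 tables. Values in every library were given for all members called in Resist vs. Naive (up to 15 by adjusted p), for the 5 called members with the largest change in each depletion comparison, for Nfe2l2, Keap1, Nqo1, Hmox1, Gclc and Gclm, and for the member with the highest mean in each role class. Alternatives were a pseudocount of 0.1, no filter, a minimum mean of 5, median-ratio scaling, quantile normalization, a fold over 2, no trend, a replicate block, a single fit of all 4 groups, and leaving out each library. Length and GC corrections, added after seeing the data, removed a spline with 4 degrees of freedom per library, using the APPRIS principal or the longest transcript of GENCODE M21. Close copies were transcripts of other genes that minimap2 2.31 aligned over 0.8 or more of the shorter sequence with an identity of 0.9 or more, and over 200 bases or more. The fits were tested on simulated data in which 200 genes were given a log2 change of 1. They found 93.5% of these for Resist vs. Naive, 89% for Resist vs. Resist-Mac and 92% for Naive vs. Naive-Mac. False calls among the unchanged genes numbered 1, 6 and 1, in sets of 10119, 10049 and 9837 genes that include the 200. With 200 genes changed, the simulation held no shift of many genes between batches and no trend with length. Its false calls therefore cannot gauge the calls in the comparisons across batches. Tables and figures used Python 3.11.15, pandas 2.3.3, numpy 2.4.6 and matplotlib 3.10.9.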

Additional observations from a re-analysis of the deposited data

Results flagged for a closer look

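Single libraries stood far from the other 4 of their group for 8 of the 118 group and member combinations examined, by Dixon's test at the 95% level, where chance flags about 1 in 20 groups, or 5.9 here. Low was Gclm in Resist replicate 4 (61.25 FPKM). High were Gpx2 in Resist-Mac replicate 2 (26.28 FPKM), Gsta1 in Naive-Mac replicate 2 (29.44), Gstm5 in Naive replicate 4 (7.56), Sod1 in Naive-Mac replicate 1 (1149.16), Ephx1 in Resist-Mac replicate 3 (32.73) and Abcb1b in Naive replicate 5 (32.79) and Resist-Mac replicate 5 (24.2).

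By limma's test of the difference, 16 members changed otherwise with depletion in resistant than in naive tumors. These were 34.8% of the 46 tested, against 40.7% of all genes tested. Among the members given in every library the difference in log2 change was -1.47 for Nfe2l2, -0.78 for Hmox1, 1.22 for Gpx4, 0.69 for Gpx8, 2.07 for Mgst2, 0.75 for Txn1, 1.51 for Prdx5, 1.28 for Sod1, -1.004 for Cyp2s1, -0.86 for Abcb1a, -1.67 for Abcc1 and -1.02 for Abcc4. Batches 1, 2 and 3 enter this difference, and batch and depletion cannot be told apart in it.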

How the results depend on the processing

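In Resist vs. Naive the 11 members called became 6 at a mean of at least 5 FPKM and 6 at a fold over 2, and 9 to 13 without single libraries. At a mean of at least 5 FPKM Gstm1, Gstm2, Gstm5, Cyp2s1 and Abcc3 were not tested, and the called members still tested kept their calls. In Resist vs. Resist-Mac the 16 became 10 with quantile normalization, 6 at a fold over 2, 4 with the length and GC correction (3 of the 16 among them) and 5 with its longest-transcript form, and 12 to 16 without single libraries. In Naive vs. Naive-Mac the 24 were 23 to 26 without single libraries, and in the difference between the depletion effects the 16 became 8 at a fold over 2. Over all genes, calls higher and lower in Resist vs. Naive were 531 and 112, but 458 and 148 with median-ratio scaling and 381 and 167 with quantile normalization. In Resist vs. Resist-Mac quantile normalization gave 981 and 808, and the length and GC correction 844 calls in place of 2181. In Naive vs. Naive-Mac median-ratio scaling gave 2857 and 3073 and quantile normalization 2628 and 2855 in place of 3691 and 2177, and the length and GC correction 3776 in place of 5868. A fold over 2 left 219, 481 and 3659 calls, and a mean of at least 5 FPKM gave 392 in Resist vs. Naive.

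For members given in every library or called, signs of log2 changes turned as follows, and the cause was not tested. In Resist vs. Naive, Gpx4 was 0.059 with quantile normalization, 0.016 and 0.015 with the length corrections by principal and longest transcript, and -0.12 to 0.034 without single libraries. Abcb1b was -0.0024 with median-ratio scaling. Abcc1 was -0.047 with median-ratio scaling and -0.0054 with quantile normalization, -0.047 and -0.048 with the length corrections, and -0.026 to 0.049 without single libraries.

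In Resist vs. Resist-Mac, without single libraries, Nfe2l2 ran from -0.038 to 0.094, Keap1 from -0.051 to 0.083, Srxn1 from -0.086 to 0.074, Gclc from -0.015 to 0.10, Ephx1 from -0.26 to 0.099 and Akr1b8 from -0.012 to 0.14. Quantile normalization turned Gclm (0.082), Txn1 (0.16), Prdx5 (0.19) and Sod1 (0.33). Both length corrections turned Keap1 (-0.15 and -0.086), Hmox1 (0.058 and 0.11), Gpx8 (0.45 and 0.50), Gstm5 (0.32 and 0.31), Gstp1 (0.063 and 0.082), Txn1 (0.018 and 0.076), Prdx5 (0.26 and 0.11), Ephx1 (0.15 and 0.21), Abcc1 (-0.25 and -0.22) and Abcc3 (-0.16 and -0.13). That by principal transcript turned Gclc (-0.063), Mgst2 (0.32), Sod1 (0.50) and Abcc4 (-0.038), and that by longest transcript Srxn1 (0.035).

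In Naive vs. Naive-Mac, median-ratio scaling and quantile normalization turned Srxn1 (-0.0087 and -0.058) and Abcc3 (-0.071 and -0.53), the first also Keap1 (-0.039) and the second Akr1b8 (0.032), which ran from -0.12 to 0.041 without single libraries. Both length corrections turned Keap1 (-0.32 and -0.16), Gclm (-0.39 and -0.28), Gpx8 (0.65 and 0.75), Gsta4 (0.11 and 0.19), Gstm1 (0.36 and 0.42), Gstm2 (0.13 and 0.20), Gstm5 (1.06 and 1.03), Gsto1 (0.028 and 0.10), Gstp1 (0.21 and 0.22), Mgst1 (0.068 and 0.18), Txn1 (0.074 and 0.17), Taldo1 (0.11 and 0.081), Ephx1 (0.083 and 0.20), Akr1b8 (0.92 and 1.01), Abcc3 (-0.88 and -0.79) and Abcc5 (-0.16 and -0.067). Gpx2 (0.89) and Sod1 (0.018) turned by principal transcript and Gsta1 by longest transcript (0.031).

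The same replicate numbers in the groups did not pair the libraries. Deviations of same-numbered libraries correlated at -0.16 to -0.03 in Resist vs. Naive, -0.27 to 0.36 in Resist vs. Resist-Mac and -0.16 to 0.23 in Naive vs. Naive-Mac, and 0, 1 and 0 libraries were closest to their own number. With the replicate number as a block 12, 16 and 24 members were called in these comparisons and 16 in the difference, where Gsta4 was the member gained in Resist vs. Naive.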
